A study of Mus musculus with 56 samples.

Results

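The genes described here encode the proteins of the cytosolic ribosome. They were taken by symbol: Rpl or Rps followed by a digit, Rplp0 to Rplp2, and Rpsa, leaving out the Rps6k kinase genes and symbols that contain -ps. The rule found 87 of the 23263 genes listed in the 6 gene tables, 53 of the large subunit and 34 of the small subunit by symbol. Of these, 85 are annotated as protein coding, and Rps4l and Rpl37rt as transcribed processed pseudogenes. One gene taken by the rule, Rps19bp1, is named for a protein that binds Rps19 and is not itself a ribosomal protein.

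Fmr1 encodes FMRP, an RNA-binding protein that associates with ribosomes. The study sequenced RNA from wild-type (WT) mice and mice with a knockout (KO) of Fmr1, with 3 samples of each genotype in cortex, hippocampus, cerebellum, liver, muscle and testis. The labels give no strain, age or sex, and nothing says whether tissues came from shared animals, so p-values measure the spread between these samples. N2a cells, a mouse neuroblastoma line, received a non-targeting siRNA (siNT, 2 samples) or an siRNA against Fmr1 (siFmr1, 3 samples). In a second N2a experiment (co-transfection) each of 5 groups of 3 samples received an siRNA and a plasmid at once. The control plasmid pcDNA went with siNT, with siFmr1 or with an siRNA against Mbnl1 (siMbnl1). The plasmids for FLAG-MBNL1 were the nuclear form (nMBNL1), given to siFmr1 cells, and the cytosolic form (cMBNL1), given to siMbnl1 cells. MBNL1 is a splicing regulator.

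A eukaryotic ribosome joins a small subunit, which binds the mRNA and reads codons, to a large subunit, which forms peptide bonds and carries the exit tunnel. Each subunit needs its proteins in matched amounts, and most of their mRNAs are abundant, short and start with a run of pyrimidines (the 5′ terminal oligopyrimidine, or TOP, element) through which mTORC1 signalling controls their translation. A few of the proteins have a second gene, often an intronless copy that is used in testis or muscle, where the copy of an X-linked gene can serve germ cells whose X chromosome is silenced during meiosis.

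The bases around the transcription start are shown for genes that the N2a and tissue results turn on. Each window holds 15 bases on either side of a RefSeq start (GRCm38.p6), and capitals mark a run of at least 7 C or T bases.
Rpl38, chr11:114668565-114668594, plus strand: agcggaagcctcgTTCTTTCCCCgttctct
Rps6, chr4:86857353-86857382, minus strand: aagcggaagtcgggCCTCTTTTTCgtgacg
Rps27, chr3:90213634-90213663, minus strand: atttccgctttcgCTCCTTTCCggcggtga
Rpl22l1, chr3:28805493-28805522, plus strand: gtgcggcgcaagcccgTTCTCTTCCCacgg
Rpl26, chr11:68901551-68901580, plus strand: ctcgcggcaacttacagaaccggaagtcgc
Rpl10l, chr12:66284387-66284416, minus strand: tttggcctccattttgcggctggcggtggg
In Rpl38, Rps6 and Rps27 such a run overlaps the RefSeq start, in Rpl22l1 it lies just downstream of it, and the windows of Rpl26 and Rpl10l have none. By the gene annotation used for positions, Rpl26, Rpl38, Rps6 and Rpl22l1 start outside these windows. Whether a run is found thus depends on the start chosen. A start was matched for 66 of the 87 genes, and 33 of these 66 (50%) have a run in the window, against 5747 of 27025 genes (21.3%). The letters CCGGAAG, read on either strand in the 300 bases from 250 before to 50 after the start, are present for 26 of the 66 genes (39.4%) and for 9.9% of all genes.

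Near-identical gene copies bear on how reads were assigned. Rps27 (chr3:90212522-90213651, minus strand) encodes a small-subunit protein with a zinc finger, and Rps27rt (chr9:114982366-114982739, minus strand) is its intronless copy. Their first 30 coding bases are the same.
Rps27: atgcctctcgcaaaggatctccttcatccc
Rps27rt: atgcctctcgcaaaggatctccttcatccc
The coding sequences of this pair had 0 differences over 252 aligned bases. The coding sequence of Rpl37, aligned with the whole transcript of Rpl37rt, had 1 difference over 291. Only the co-transfection table lists Rps27rt and Rpl37rt, so levels of these 4 genes there, and of Rps27 and Rpl37 in the other tables, are uncertain. The X-linked Rpl10 (chrX:74270812-74273135, plus strand), which joins the large subunit late in assembly, and its autosomal copy Rpl10l (chr12:66283379-66284401, minus strand) can be told apart, as coding bases 118 to 147 show, with differing bases in capitals.
Rpl10: aaAgcAaaAgtTgatgaAttCccactTtgT
Rpl10l: aaGgcGaaGgtGgatgaGttTccactCtgC
These 30 bases differ at 8 positions, and 98 of 642 aligned bases differ over the coding sequence (84.7% identity). Coding identity was 87.7% for Rpl36a and Rpl36al, 85.5% for Rpl39 and Rpl39l, 74.4% for Rpl3 and Rpl3l, and 74.2% for Rpl22 and Rpl22l1.

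Depth was 26264368 to 41384652 gene counts per sample in brain regions and 13230785 to 16268865 in the peripheral tissues and the first N2a experiment. The second N2a experiment was deposited as normalized counts, with sums of 31957391 to 33275771, so its depth is unknown. Fmr1 was lower in KO than in WT in cortex, hippocampus, cerebellum, liver and testis by 1.61 to 1.97 on the log2 scale, and in muscle the log2 change was -0.61 (adjusted p = 0.0734). Marker genes of the labelled tissues and of N2a cells were high where the labels put them, although the cortex markers were as high in hippocampus. Within the first N2a experiment, siNT replicate 2 and siFmr1 replicate 3 stood apart from the other 3 samples.

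Ribosomal protein mRNAs took a larger share of the RNA in N2a cells than in any tissue. Their summed share of counts was 0.790 to 1.15% in the 3 brain regions, 1.08 to 1.18% in testis, 1.3 to 1.67% in liver and 1.63 to 2.07% in muscle, both genotypes included. The first N2a experiment gave 6.16 to 12.9%. In TPM, the authors' unit corrected for depth and transcript length, the summed shares were 4.74 to 6.70% in the brain regions, 4.05 to 4.42% in testis, 4.10 to 4.85% in liver, 5.25 to 6.59% in muscle and 21.9 to 33.1% in the first N2a experiment. The order of the tissues thus differed between the units, with brain lowest by counts but not by TPM, while N2a was highest in both. Library preparation differed between brain and the other samples, and the tables were made separately, so these summed shares were not tested against each other. By TPM, Rplp1, which encodes a protein of the acidic stalk that recruits translation factors, was highest in WT cortex at 1936 ± 212 (SD, n = 3). It was also highest in WT hippocampus at 2522 ± 236 and in WT muscle at 2521 ± 160. Rps27 led in WT testis at 2309 ± 108 TPM and in WT liver at 1352 ± 106 TPM, and Rpl26, a large-subunit protein at the tunnel exit, led in WT cerebellum at 1780 ± 45.6 TPM. The order at the top was not firm: in WT liver, Rplp1 (1318 ± 208 TPM) and Rpl10 (1259 ± 55.0 TPM) lay within the spread of Rps27. Rpl3l was the lowest listed member in all 3 WT brain regions, with means of 0.48 to 0.54 TPM.

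**Figure D1:**
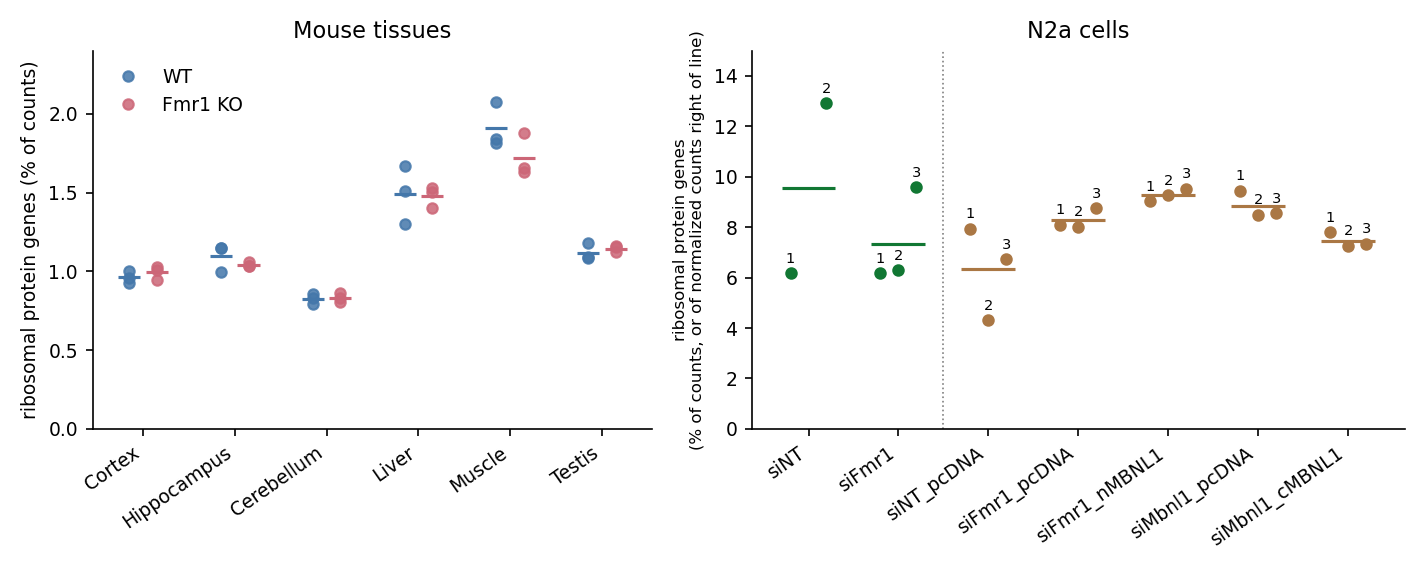
Share of all counts assigned to ribosomal protein genes in each library (y axis, percent), for the 6 tissues by genotype (left panel) and for N2a cells by siRNA group (right panel, with read counts left of the dotted line and normalized counts right of it). Points are libraries numbered by replicate and lines are group means. By counts, tissues lie at or below 2.07%, while N2a libraries reach 12.9%, and siNT replicate 2 stands apart in both N2a experiments, high in the first and low at 4.31% in the second.

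Among WT brain regions, cerebellum had the lowest ribosomal protein mRNA levels. Values within a gene are CPM, counts divided by the library total after edgeR's TMM scaling, and a gene is called when edgeR's quasi-likelihood test gave an adjusted p below 0.05 (Benjamini-Hochberg, over all genes tested). Hippocampus exceeded cerebellum for 75 of 82 members, with 2 lower, where 68% of all genes were called in either direction. The median log2 difference was 0.45 over members and -0.01 over all genes. Cortex exceeded cerebellum for 57 members, with 3 lower and a median of 0.33, against 67.9% of all genes called and a median of -0.02. Rps2, a small-subunit protein near the mRNA entry channel, was at 199, 167 and 201 CPM in WT hippocampus, at 162, 138 and 137 CPM in WT cortex and at 76.7, 75.8 and 65.8 CPM in WT cerebellum. No sample of the other regions came near the cerebellar values, and the hippocampus to cerebellum difference was 1.38 ± 0.09 (log2 ± SE, adjusted p = 1.14e-07). Rplp1 was at 224, 178 and 217 CPM in hippocampus and at 96.4, 117 and 115 CPM in cerebellum, a log2 difference of 0.91. The small-subunit gene Rps15a went the other way, at 151, 149 and 162 CPM in cerebellum and at 119, 114 and 118 CPM in hippocampus (log2 difference -0.39).

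Cortex and hippocampus were closer, with 32 of 82 members called against 43.4% of all genes. Rpl23 and Rps7 were higher in cortex by 0.21 and 0.20, and 30 members were lower, with a median of -0.15 over members and 0.00 over all genes. The pseudogene-annotated Rps4l, a copy of Rps4x, was at 12.6, 9.14 and 6.56 CPM in cortex and at 23.0, 17.6 and 17.2 CPM in hippocampus (log2 difference -1.03, adjusted p = 0.00203). Rplp2, the partner of Rplp1 in the stalk, was lower in cortex by 0.58 (adjusted p = 0.00037). Without WT cortex replicate 2 the count of calls was 18, and without WT hippocampus replicate 1 or replicate 3 it was 21 each. Mitochondrial ribosomal proteins, encoded by a separate nuclear gene set, gave 17 higher and 13 lower of 77 for hippocampus against cerebellum.

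Testis had lower levels of most ribosomal protein mRNAs than liver or muscle, with the X-linked genes lowest. These tests, and the values over all genes beside them, covered 10856 genes listed in testis, liver and muscle alike. Genes not listed in all of these, such as Rpl10l and Rpl39l, were left out. Against liver, 59 of 82 members were lower and 4 higher, where 84.1% of all genes were called, and against muscle 67 were lower and 5 higher, where 83.6% were. The median log2 differences over members were -0.93 and -0.81, and over all genes -0.05 and -0.02. The 4 X-linked members, Rpl10, Rps4x, Rpl36a and Rpl39, were all lower, with medians of -3.67 against liver and -3.15 against muscle. The 78 autosomal members had medians of -0.90 and -0.77. Over all 314 X-linked genes tested the medians were -1.06 and -1.05, with 62.1% and 61.1% lower, and over autosomal genes they were -0.01 and 0.01, with 42.2% and 41.6% lower. Testis, liver and muscle were deposited as separate tables, so an effect of table cannot be told apart from one of tissue. In bulk samples, fewer cells of a type and less RNA per cell cannot be told apart.

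Rpl10 was at 134, 108 and 102 TPM in WT testis, at 1283, 1299 and 1196 TPM in WT liver and at 844, 815 and 871 TPM in WT muscle. Every testis sample lay far below every sample of the other tissues, and the difference from liver was -4.00 ± 0.14 (log2 ± SE, adjusted p = 5.22e-11). Rps4x, whose protein sits in the small subunit, was at 74.1, 64.9 and 44.0 TPM in testis and at 579.9, 620.9 and 564 TPM in liver, a difference of -3.82 ± 0.17 (adjusted p = 2.64e-10). Rpl39, a short protein of the exit tunnel, differed by -2.75 from liver and by -3.0 from muscle. Rps2 had the largest fall among autosomal members, by 2.41 against liver and by 2.51 against muscle. Higher in testis than in liver were Rps4l (1.66), Rps20 (0.58), Rplp0 (0.30) and Rps7 (0.29), Rplp0 being the base of the ribosomal stalk.

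**Figure D2:**
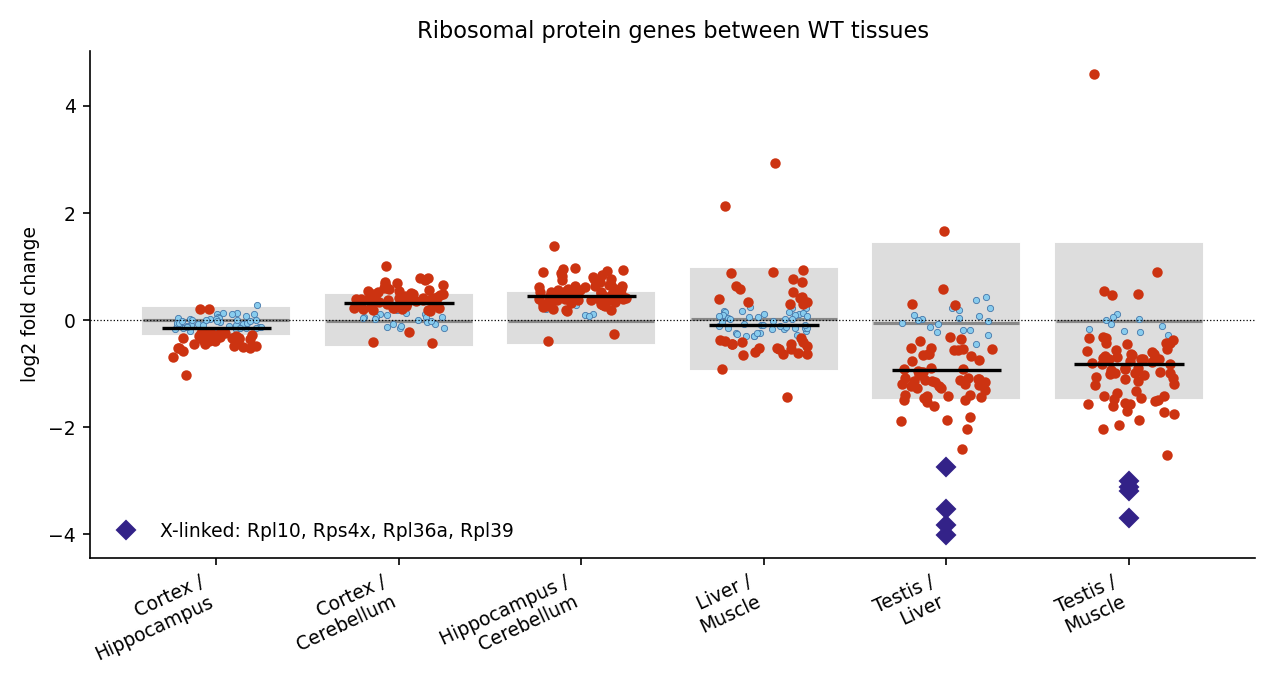
Log2 fold changes of each ribosomal protein gene between WT tissues (y axis, log2; 1 column per comparison). Red points are called and pale blue points are not, the black line is the member median, the grey box spans the 25th to 75th percentile of all genes with their median as a grey line, and purple diamonds are the X-linked members in the testis comparisons. The member median sits above the all-gene median against cerebellum and below it in testis, with X-linked members between -2.75 and -4.00 against liver.

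Each X-linked gene's autosomal copy was the more abundant of the pair in testis. Rpl10l was at 358, 345 and 325 TPM in WT testis, which was 72.7 to 76.2% of the pair's summed TPM. It was listed in no other tissue table. Rpl39l, at 349, 347 and 381 TPM, made up 68.3 to 80.8% of its pair in WT testis, while in N2a siNT samples it made up 4.58 to 5.95%. Rpl36al made up 86.2 to 86.4% of its pair in WT testis, 59.6 to 62.0% in liver, 50.7 to 54.4% in muscle and 34.9 to 42.8% in the brain regions. Rps4l, at 205, 182 and 179 TPM, made up 73.4 to 80.2% in testis, against 0.771 to 1.37% in muscle and 4.47 to 8.03% in liver. For Rpl36al and Rps4l the lowest testis share lay above the highest share in every other tissue. Rpl10l and Rpl39l were listed in no tissue but testis, so their shares cannot be compared between tissues.

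Muscle used another copy. Rpl3 encodes a core large-subunit protein near the peptidyl transferase centre, and Rpl3l is its paralog of heart and skeletal muscle. Rpl3l was at 804, 758 and 796 TPM in WT muscle and Rpl3 at 81.2, 104 and 99.2 TPM, so that Rpl3l made up 87.9 to 90.8% of the pair. Rpl3 was higher in liver than in muscle by 2.14 ± 0.13 (log2 ± SE, adjusted p = 8.02e-09). Between liver and muscle 37 of 82 members were called, 17 higher and 20 lower in liver, against 74.3% of all genes. Rpl22l1, the paralog of the RNA-binding large-subunit protein Rpl22, was lower in liver by 1.44. By TPM, Rpl22l1 made up 74.6 to 76.7% of its pair in WT cortex, 62.9 to 69.6% in WT cerebellum and 15.7 to 19.9% in N2a siNT cells. Without the correction for transcript length the order turned, with WT cortex means of 25.8 CPM for Rpl22l1 and 78.8 CPM for Rpl22. Rps27l, a paralog of Rps27 that p53 can induce, made up 32.6 to 37.7% of its pair's TPM in WT liver and 2.21 to 4.50% in the WT brain regions.

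**Figure D3:**
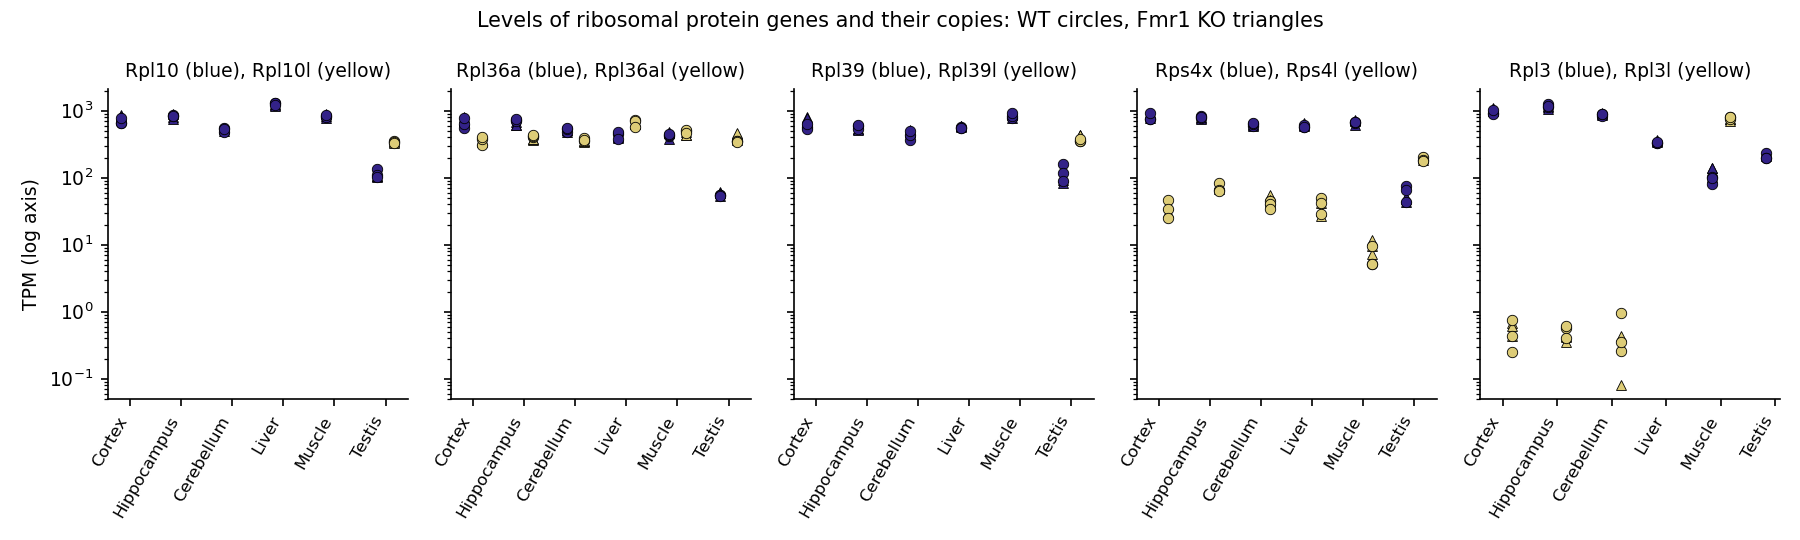
TPM (log axis) of 5 pairs of a ribosomal protein gene and its paralog in the samples of 6 tissues, with WT as circles and Fmr1 KO as triangles. The autosomal copy lies above the X-linked gene in testis and Rpl3l lies above Rpl3 in muscle, in both genotypes.

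In single brain regions no ribosomal protein gene passed the test between Fmr1 KO and WT. None of 82 members was called in cortex, hippocampus or cerebellum by edgeR's test, where 0.0203%, 0.209% and 0.226% of all genes were, and 11, 10 and 3 members had an unadjusted p below 0.05. These are 13.4%, 12.2% and 3.66% of the members, against 21%, 12.5% and 8.72% of all genes. With 1 sample left out, the member counts ran from 7 to 21 in cortex, 7 to 39 in hippocampus and 2 to 11 in cerebellum. DESeq2 called 6 members higher in cortex (7.32%, against 2.99% of all genes called higher and 6.25% in either direction). It called 4 lower in hippocampus (4.88%, against 0.957% called lower and 1.75% in either direction) and 0 in cerebellum (against 0.643%). The signs leaned one way within a region: 55 of 82 log2 changes were positive in cortex (median 0.05, all genes 0.00), 66 were negative in hippocampus (median -0.06, all genes 0.00) and 61 were positive in cerebellum (median 0.03, all genes 0.00). With 1 sample left out, the medians ran from 0.02 to 0.07 in cortex and from -0.135 to -0.026 in hippocampus. In cerebellum they ran from -0.01 to 0.07, so its sign was not firm. Without WT cortex replicate 3, edgeR called 7 members in cortex (8.54%), against 7.36% of all genes.

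The cortical genes nearest the threshold were Rpl39, Rps27, Rps28 and Rpl22l1. Rpl39 was at 39.3, 42.8 and 41.7 CPM in KO cortex and at 31.2, 28.1 and 29.7 CPM in WT cortex, a log2 change of 0.48 ± 0.07 (SE, adjusted p = 0.0668 by edgeR). Every KO sample exceeded every WT sample. Genotypes did not overlap in cortex, in one direction or the other, for 15 of 82 members (18.3%) and for 25.7% of all genes. In hippocampus Rpl39 was at 26.3, 27.0 and 27.1 CPM in KO and 31.3, 26.8 and 34.4 CPM in WT, so the genotypes overlapped. Rplp2 was at 62.3, 59.3 and 56.6 CPM in KO cortex against 47.8, 47.4 and 53.3 in WT cortex, and at 63.1, 59.4 and 58.3 CPM in KO hippocampus against 72.9, 67.6 and 81.3 in WT hippocampus. KO samples were the higher ones in cortex and the lower ones in hippocampus, but the difference between the regions' changes, 0.56 ± 0.11, did not pass (edgeR interaction, adjusted p = 0.189). That interaction called 0 members and 0% of all genes, with 18 members (22%) at an unadjusted p below 0.05, against 10.1% of all genes, and 4 called by DESeq2 (4.88%), against 0.413%. The interactions with cerebellum also called 0 members, with 0% of all genes for cortex and 0.00645% for hippocampus. The summed CPM of the 4 oligodendrocyte markers was 4002 to 4108 in KO hippocampus and 4820 to 5173 in WT hippocampus, and its part in the hippocampal values was not tested.

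Over the 3 regions together, 2 of 82 members rose, against 3.48% of all genes called. Rpl22l1 rose by 0.29 ± 0.08 (adjusted p = 0.0427 by edgeR). It was at 36.5, 40.5 and 30.6 CPM in KO cortex and 24.6, 24.8 and 27.9 CPM in WT cortex. In hippocampus it was at 26.1, 26.4 and 23.0 CPM in KO and 22.6, 17.5 and 23.2 CPM in WT, and in cerebellum at 16.4, 16.0 and 16.1 CPM in KO and 12.7, 14.4 and 17.4 CPM in WT. The genotypes were separate in cortex and overlapped in the other regions. Rpl7l1, a paralog of Rpl7, rose by 0.11 ± 0.03 (adjusted p = 0.0436 by edgeR). Its hippocampal levels were 41.7, 42.1 and 40.8 CPM in KO and 38.2, 37.5 and 38.1 CPM in WT. Without cerebellum WT replicate 3 the count was 3, without hippocampus KO replicate 3 it was 2, and without any other single sample it was 0 or 1. Both calls were lost when same-numbered samples of a genotype were summed over the regions.

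**Figure D4:**
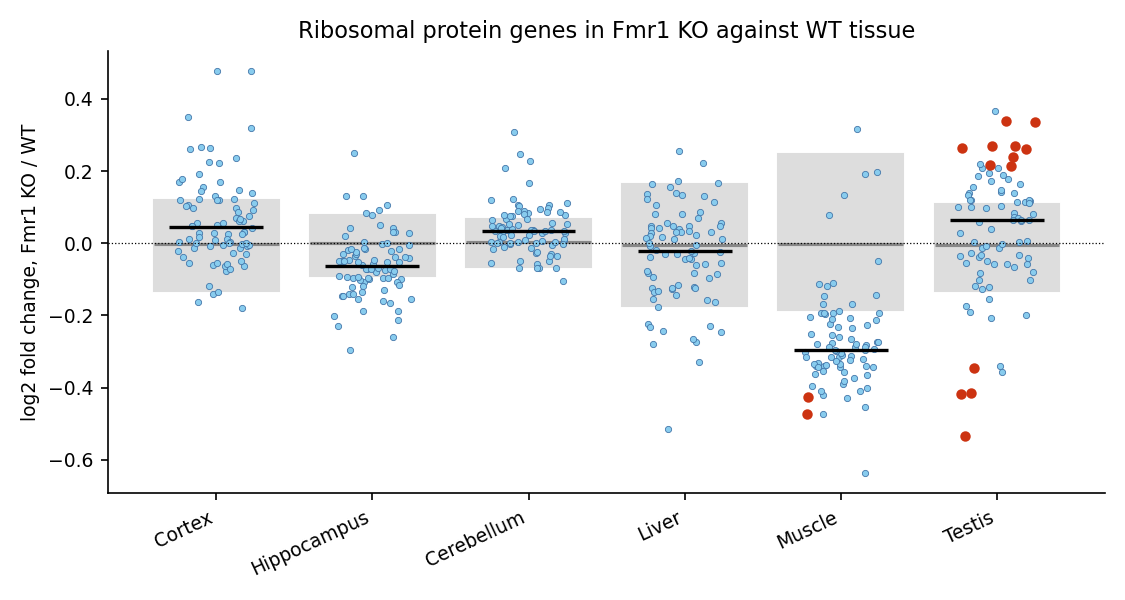
Log2 fold change of each ribosomal protein gene between Fmr1 KO and WT (y axis, log2; 1 column per tissue). Red points are called and pale blue points are not, the black line is the member median, and the grey box spans the 25th to 75th percentile of all genes tested with their median as a grey line. The member median in muscle, -0.29, lies below that box, and testis has called genes on both sides of 0.

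In liver no member passed either. None of 82 members was called, against 0.411% of all genes, 38 log2 changes were positive and 44 negative, and 1 gene, Rpl28 of the large subunit, had an unadjusted p below 0.05, where 11.4% of all genes did. DESeq2 called 0 members and 2.3% of all genes. Rpl28 was at 124, 105 and 112 CPM in KO and 206, 174 and 106 CPM in WT, so WT replicate 3 lay among the KO samples.

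In muscle, ribosomal protein mRNA levels were mostly lower in KO, while few genes passed the test singly. By edgeR's test 2 of 83 members fell, among them Rpl30 of the large subunit, against 1.03% of all genes called lower and 4.04% called in either direction. Of the 83 log2 changes 78 were negative, 58 (69.9%) had an unadjusted p below 0.05, and 66 genes (79.5%) had genotypes that did not overlap. Over all genes these shares were 25.9% and 31.4%. The median was -0.29 over members and 0.00 over all genes. With 1 sample left out, 26 to 57 members had an unadjusted p below 0.05 by edgeR. Rpl30 was at 154, 145 and 126 CPM in KO and 193, 196 and 201 CPM in WT, a change of -0.47 ± 0.10 (log2 ± SE, adjusted p = 0.0409 by edgeR). All KO samples of Rpl30 were below all WT samples.

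Other genes had similar values without passing. Rplp0 was at 767, 675 and 690.5 CPM in KO muscle and 888, 852 and 913 CPM in WT (log2 change -0.31, adjusted p = 0.106). Rpsa, a small-subunit protein also known as a laminin receptor, was at 453, 419 and 416 CPM in KO and 557, 503 and 573 CPM in WT (adjusted p = 0.0834). The genotypes did not overlap in either gene. Rpl5 and Rpl11, which bind the 5S rRNA and, when free, the p53 regulator Mdm2, had changes of -0.32 (adjusted p = 0.0847) and -0.34 (adjusted p = 0.102). Rps6, the substrate of the S6 kinases, had -0.20 (adjusted p = 0.244). The muscle paralog Rpl3l was at 521, 531 and 454 CPM in KO and 662, 596 and 626 CPM in WT (log2 change -0.32, adjusted p = 0.107). Rpl3 was at 96.5, 72.6 and 89.2 CPM in KO and 66.3, 81.2 and 77.7 CPM in WT, with overlapping genotypes and a positive sign (0.20, adjusted p = 0.345). Rpl34, Rps4l, Rps19bp1 and Rps28 were the other members with a positive sign.

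The lower values in muscle were shared with related gene sets and came with other differences between the samples. Of 77 mitochondrial ribosomal proteins, 76 had a negative change and 2 fell, with a median of -0.23. Of 37 translation factors and other TOP mRNAs 1 fell, with a median of -0.22. Of 40 ribosome biogenesis genes 0 were called, while 31 had a negative change, with a median of -0.07. The 3 fibroblast markers summed to 2351 to 3626 CPM in KO muscle and 1143 to 1991 CPM in WT muscle, and the 3 listed of 4 microglia and macrophage markers to 40.4 to 46.1 and 21.7 to 30.7 CPM. Adipocyte markers (3 of 3) summed to 26.9 to 82.6 CPM in KO and 18.7 to 20.4 CPM in WT, with no overlap. Skeletal muscle markers (3 of 3) summed to 88987 to 107514 CPM in KO and 100521 to 117254 CPM in WT. Their part in the ribosomal protein values was not tested. DESeq2 called 28 members lower (33.7%), against 3.44% of all genes lower and 8.63% in either direction, and edgeR called 0 without any one of the 6 samples, with medians of -0.35 to -0.25.

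In testis, KO changed ribosomal protein genes in both directions. Of 84 members 13 were called, 9 higher and 4 lower, against 4.27% of all genes, and the median log2 change was 0.06 against 0.00 over all genes. Rps29, a short zinc-binding protein of the small subunit, fell: it was at 61.4, 60.5 and 62.2 CPM in KO and at 83.3, 87.1 and 74.6 CPM in WT. Its change was -0.41 ± 0.07 (log2 ± SE, adjusted p = 0.000289 by edgeR), and no KO sample reached the lowest WT sample. Rpl28 fell by 0.42, from 91.5, 100.5 and 93.6 CPM in WT to 84.7, 63.8 and 65.8 CPM in KO (adjusted p = 0.000872). Rps28 fell by 0.53 (adjusted p = 0.00287), although its KO replicate 1, at 24.3 CPM, lay just above its WT replicate 3, at 24.1 CPM. Rplp1 fell by 0.35 (adjusted p = 0.00344), from 130.1, 117 and 106 CPM to 103, 91.6 and 83.7 CPM.

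Rpl29, a large-subunit protein found in eukaryotes, rose from 189, 191 and 216 CPM in WT to 255, 247 and 254 CPM in KO (log2 change 0.34 ± 0.06, adjusted p = 0.00079 by edgeR). Every KO sample exceeded every WT sample. Rpl36al rose by 0.34 (adjusted p = 0.00639), from 59.9, 60.2 and 61.1 CPM to 65.1, 81.5 and 81.8 CPM, with KO replicate 1 nearest to WT. The testis copy Rpl39l rose by 0.27 (adjusted p = 0.00977), from 119, 120.1 and 136 CPM to 151, 153 and 149 CPM. The 6 other genes that rose did so by 0.21 to 0.27, among them Rps23, Rpl27, Rps21, Rpl35a and Rpl7. Rpl10l did not move with Rpl39l: it was at 173, 164 and 157 CPM in KO and 168, 165 and 160 CPM in WT (adjusted p = 0.99).

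Set against muscle, the changes in testis were more positive. An edgeR interaction of genotype and tissue, added after both sets of changes were seen, called 35 of 82 members for testis against muscle (7.71% of all genes), 0 for liver against muscle (0.267%) and 0 for testis against liver (0.423%). The first of these counts was 8 without testis WT replicate 2.

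No X-linked member was called in testis: Rps4x had -0.34 (adjusted p = 0.0832) and Rpl39 -0.36 (adjusted p = 0.157). As a share of its pair's TPM, Rpl39l was at 68.3 to 80.8% in WT and 80.8 to 83.9% in KO, and Rpl36al at 86.2 to 86.4% in WT and 87.3 to 88.5% in KO. Rps29, Rpl28 and Rpl29 stayed called without any one of the 6 samples. The number of calls ranged from 5, without KO replicate 2 or KO replicate 3, to 24 without KO replicate 1, and it was 6 without WT replicate 1 or WT replicate 2. Summed Leydig cell markers (3 of 3) were at 917 to 965 CPM in KO and 989 to 1279 CPM in WT, and their part in these values was not tested. Spermatid markers (3 of 3) overlapped, at 8348 to 9073 CPM in KO and 8188 to 9022 CPM in WT. One of them, the transition protein gene Tnp1, was at 1474, 1417 and 1378 CPM in KO and 1679, 1770 and 1727 CPM in WT, with no overlap, and Prm1 and Prm2 overlapped. The part of these markers was not tested.

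In the first N2a experiment, samples differed more within groups than between them. None of 82 members was called for siFmr1 against siNT, 0% of all genes were called, and 0 members had an unadjusted p below 0.05, where 0.386% of all genes did (edgeR; DESeq2 called 0 genes). Members took 6.16 and 12.9% of counts in siNT and 6.17, 6.29 and 9.58% in siFmr1. Rps6 was at 894 and 2002 CPM in siNT and 800.2, 778 and 1306 CPM in siFmr1, and Rpl26 at 179 and 513 CPM in siNT and 159, 159 and 306 CPM in siFmr1. For both genes the high samples were siNT replicate 2 and siFmr1 replicate 3, and the groups overlapped. All 82 log2 changes were negative, with a median of -0.52, and this median was -1.03 without siNT replicate 1 and 0.27 without siNT replicate 2. Fmr1 itself was at 77.7 and 22.4 CPM in siNT and 14.7, 14.7 and 2.12 CPM in siFmr1.

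In the co-transfection experiment, knockdown of Fmr1 or of Mbnl1 was accompanied by higher ribosomal protein mRNA levels than in siNT. Values are the deposited normalized counts, and tests used limma on log2(value + 1) with Benjamini-Hochberg adjustment, so changes of low genes are understated. In siFmr1 43 of 87 members rose and 0 fell, against 37% of all genes called and 19.5% called higher, with a median of 0.45 over members and 0.03 over all genes. In siMbnl1 58 rose and 0 fell, against 32.8% called and 17% called higher, with medians of 0.65 and 0.01. The calls covered both subunits, with 25 of 53 large-subunit and 18 of 34 small-subunit genes in siFmr1, and 35 and 23 in siMbnl1. Both comparisons share the 3 siNT samples.

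Rpl26 was at 881, 762 and 1027 normalized counts in siNT, at 2018, 1973 and 2074 in siFmr1, and at 2643, 2118 and 2128 in siMbnl1. Every knockdown sample was well above every siNT sample, with log2 changes of 1.19 ± 0.10 in siFmr1 (adjusted p = 4.33e-07) and 1.37 ± 0.10 in siMbnl1 (adjusted p = 1.87e-07, both by limma). Rpl38, a large-subunit protein known for its effect on Hox mRNA translation in mouse embryos, was at 11090, 5180 and 13620 in siNT, 20338, 21778 and 22819 in siFmr1, and 27798, 22738 and 25373 in siMbnl1. Rpl38 rose by 1.23 ± 0.23 in siFmr1 (adjusted p = 0.000568) and by 1.45 in siMbnl1 (adjusted p = 0.000184). Rps29 rose by 1.27 ± 0.27 in siFmr1 (adjusted p = 0.00145) and by 1.51 in siMbnl1 (adjusted p = 0.000446). In Rpl38 and Rps29 siNT replicate 2 was the lowest sample, at less than 0.5 of the other siNT samples.

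Among the genes tied to p53 control, Rpl11 rose by 0.69 in siFmr1 (adjusted p = 0.000546) and by 0.74 in siMbnl1 (adjusted p = 0.000382). Rpl11 was at 35668, 23840 and 36025 in siNT and at 49575, 48113 and 53653 in siFmr1. Its partner Rpl5 had 0.30 in each comparison and did not pass. Of the stalk genes Rplp0 rose by 0.39 in siFmr1 and by 0.38 in siMbnl1, and Rplp1 rose by 0.88 in siMbnl1. Rps19, a small-subunit assembly protein mutated in Diamond-Blackfan anaemia, rose by 0.60 and 0.79, and Rps27a, which is made as a fusion with ubiquitin, by 0.54 and 0.81. Rpl22l1 rose in siMbnl1 by 1.10, from 553, 237 and 444 in siNT to 944, 781 and 785, and in siFmr1 by 0.58 (adjusted p = 0.0438), with 530, 563 and 647. Not called were Rps6 (0.20 in siFmr1, adjusted p = 0.326, and 0.33 in siMbnl1, adjusted p = 0.11), Rpsa (0.16 and 0.27) and Rpl3 (0.25 and 0.22). Rps6 was at 34338, 17860 and 24992 in siNT and 28108, 27338 and 30408 in siFmr1, so siNT spanned the knockdown samples.

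**Figure D5:**
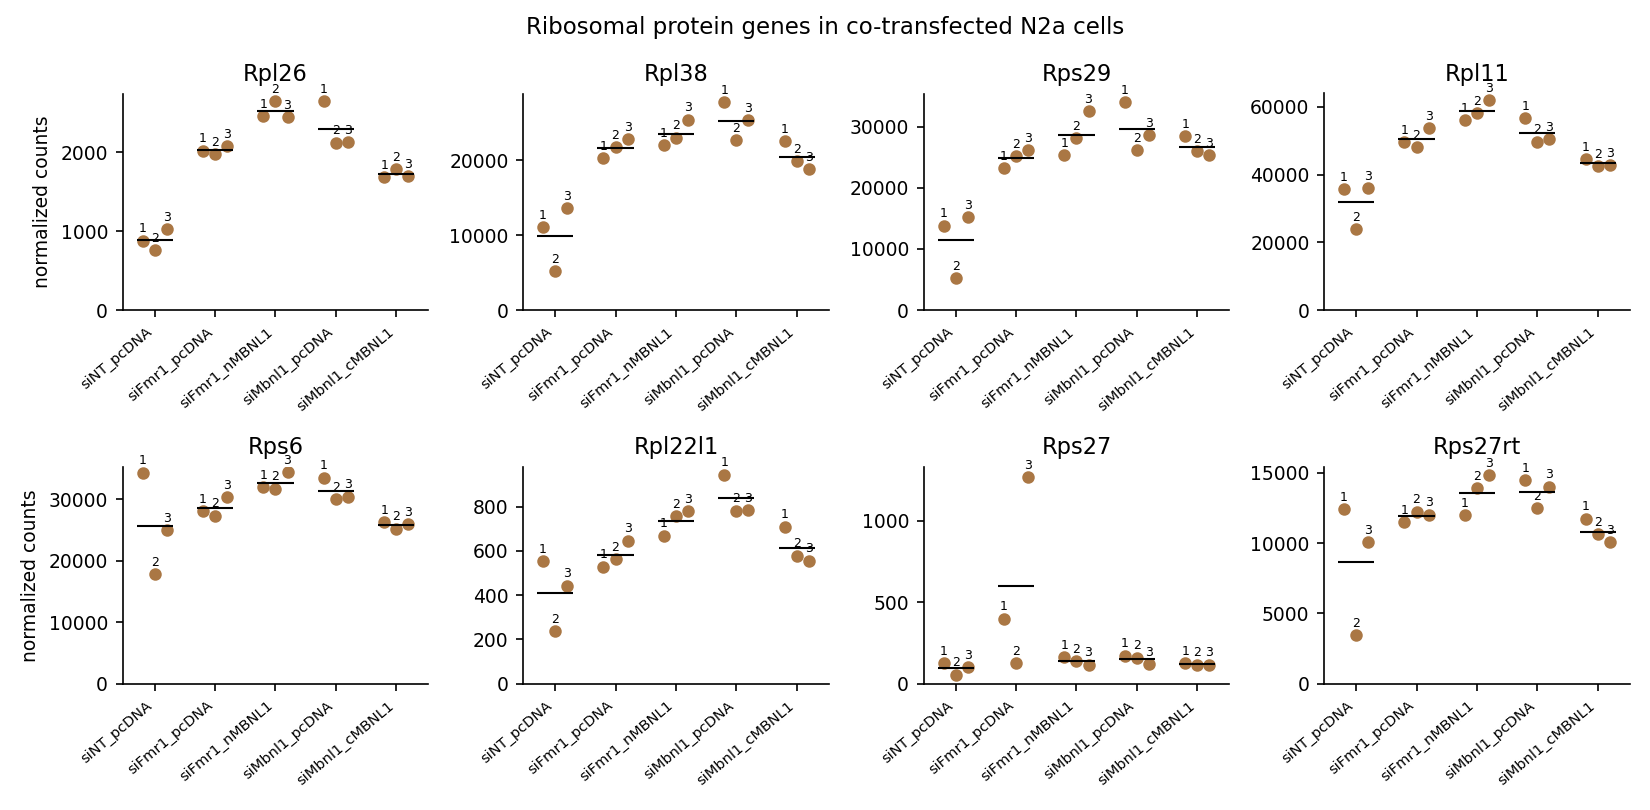
Normalized counts (y axis) of 8 ribosomal protein genes in the 5 co-transfection groups, with points numbered by replicate and lines at group means. Rpl26, Rpl38, Rps29 and Rpl11 are higher in all knockdown samples than in siNT, siNT replicate 2 is low in most panels, and Rps27 has its highest values in siFmr1 with pcDNA while its copy Rps27rt does not.

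The siNT samples set the size of these differences. The members' share of normalized counts was 7.95, 4.31 and 6.74% in siNT, 8.10, 8.02 and 8.75% in siFmr1, and 9.44, 8.5 and 8.55% in siMbnl1. Without siNT replicate 2, 37 members were called in siFmr1, 35 higher and 2 lower, with a median of 0.15, and in siMbnl1 54 were called with a median of 0.29. Without siNT replicate 1, 82 members were called in siFmr1, and without siFmr1 replicate 3, 26 were called. When only the compared groups entered the fit, 15 members (17.2%) were called in siFmr1, where 22.7% of all genes were, and 19 (21.8%) in siMbnl1, where 15.1% were.

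Of the related lists, mitochondrial ribosomal proteins had the highest share of genes that rose in siFmr1 and ribosome biogenesis in siMbnl1. Mitochondrial ribosomal proteins gave 30 higher and 1 lower of 77 in siFmr1 (median 0.24) and 36 higher and 1 lower in siMbnl1 (median 0.35). The shares higher are 39% and 46.8%, against 19.5% and 17% of all genes. Ribosome biogenesis genes gave 10 higher and 2 lower of 40 in siFmr1 (25% higher), and 22 higher and 1 lower in siMbnl1 (55%). Translation factors and other TOP mRNAs gave 9 higher and 2 lower of 37 (24.3%), and 11 higher and 0 lower (29.7%). Regulators of mTORC1 and TOP mRNAs gave 2 higher and 3 lower of 15 in siFmr1, and 2 higher and 2 lower in siMbnl1. Of 10 p53 response genes 2 rose and 3 fell in siFmr1, and 4 rose and 1 fell in siMbnl1.

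Adding MBNL1 moved few members past the threshold when all 5 groups entered the fit, and many more when only the compared groups did. With nuclear MBNL1 in siFmr1 cells 0 of 87 members were called against siFmr1 with pcDNA, where 1.76% of all genes were. There 84 log2 changes were positive, with a median of 0.18, and 5 (5.75%) had an unadjusted p below 0.05, where 17.9% of all genes did. The 2 groups did not overlap for 72 members (82.8%) and for 33.4% of all genes. With cytosolic MBNL1 in siMbnl1 cells Rpl26 alone of 87 members fell, against 2.24% of all genes called. It was at 1683, 1786 and 1698 there and changed by -0.41 ± 0.10 (adjusted p = 0.0445 by limma), with all 3 samples below the siMbnl1 samples with pcDNA and above the siNT samples. In that comparison 85 changes were negative, with a median of -0.27, and the groups did not overlap for 73 members (83.9%) and for 34% of all genes. The Rpl26 call was lost without any one of the 6 samples. When only the compared groups entered the fit, 48 members (55.2%) were called higher with nuclear MBNL1, where 8.01% of all genes were called higher and 17.2% in either direction. In the same way 72 members (82.8%) were called lower with cytosolic MBNL1, where 8.28% were called lower and 17.7% in either direction. The members' share of normalized counts was 9.04, 9.26 and 9.53% with nuclear MBNL1 and 7.80, 7.26 and 7.34% with cytosolic MBNL1, so neither group overlapped its pcDNA counterpart.

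Between siFmr1 and siMbnl1, both with pcDNA, 4 members were called, against 35.3% of all genes. With only these groups in the fit 39 were called (44.8%), 3 higher and 36 lower in siFmr1, against 47.3% of all genes. Rpl7l1 and Rpl10l were lower in siFmr1, by 0.27 and 0.49 on the log2 scale. In siMbnl1 against siNT Rpl7l1 rose by 0.26 (adjusted p = 0.00261), while in siFmr1 against siNT its change was -0.01. Rps27 was higher in siFmr1 by 1.41 (adjusted p = 0.0494 by limma), with 400.4, 125 and 1271 normalized counts in siFmr1 and 55.6 to 172 in the other groups. Its copy Rps27rt held 3475 to 14856 normalized counts, and Rps27 was 0.783 to 9.56% of the pair, so this call is uncertain. Rpl3l, the fourth gene, was higher in siFmr1 by 2.3 and lay at 1.5 to 24.3 normalized counts over all groups.

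Exon skipping was examined in the authors' deposited tables, where an event was counted at a false discovery rate below 0.05 and an inclusion difference of at least 0.1. In 10 of the 11 tables no ribosomal protein gene had such an event, while 1.7% of all events in the 11 tables passed. Member events numbered 16 to 51 in the tissue tables, where 0.146 to 1.36% of all events passed. With so few events, 0 passing says little there. The N2a tables held 122 to 277 member events each. The remaining table, which the labels list with siMbnl1 cells given cytosolic MBNL1 and where 2.35% of events passed, holds 1, in Rpl10a, a large-subunit gene. The authors' deposited table gives it at chr17:28328811-28328885 on the plus strand, with a false discovery rate of 9.06e-09 and an inclusion difference of -0.375. The table does not say which samples form which set, so the direction cannot be read.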

How the data were processed

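Gene counts and TPM per sample for tissues and the first N2a experiment were deposited by the authors, as were normalized counts (a signal whose scaling method is not stated) for the co-transfection experiment. Per the submitters' processing notes, the tools were FastQC 0.11.8, Trimmomatic 0.39, Bowtie2 2.3.5, STAR 2.6.1, RSEM 1.3.1 and DESeq2 1.16.1, with builds GRCm38 and mm10. Which tool did which step is not given there. The authors' deposited exon tables give a false discovery rate (p-value adjusted by the authors) and a difference of inclusion fractions.

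Counts were tested with edgeR 4.0.16 (filterByExpr, TMM, quasi-likelihood) in R 4.3.3 and normalized counts with limma 3.58.1 on log2(value + 1), all 5 groups in a single fit, leaving out genes whose mean was below 1. DESeq2 1.42.0 was an alternative. P-values were adjusted over all genes, with a threshold of 0.05. All tests were two-sided. The scripts were tested on simulated data with 200 changed genes. Sequences came from RefSeq tables (GRCm38.p6) and GENCODE vM21 transcripts, aligned with Biopython 1.88 under Python 3.11.15.

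The members and lists were chosen with earlier results of these data known. The genes named were the called members with the largest changes, up to 8 by size (5 per direction between WT tissues, with a mean of at least 50 counts, or of 5 normalized counts), and members of fixed interest such as paralogs, X-linked, stalk and p53-linked genes. Other genes named were chosen after their values were seen. In the muscle table, 4 sample columns whose names match no label were not used. Some genes of the family are not reported here. Replicate numbers were checked for pairing: no comparison of genotypes or siRNAs had every same-numbered pair correlating above 0.1, while between tissues KO hippocampus and KO cerebellum did.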

Additional observations from a re-analysis of the deposited data

Results flagged for a closer look

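The change with Fmr1 KO differed between testis and muscle in ribosomal protein genes. This comparison was added after the changes in both tissues were seen. An edgeR interaction of genotype and tissue over 12 samples called 35 of 82 members, each with a more positive change in testis, against 7.71% of all genes, and the median difference of changes was 0.36 over members and -0.01 over all genes. The differences of log2 changes, testis minus muscle, for genes named by the rule were 0.647 for Rpl36al, 0.633 for Rpl29, 0.549 for Rpsa, 0.528 for Rpl5, 0.525 for Rps27a, 0.479 for Rps21, 0.477 for Rpl11, 0.456 for Rpl7, 0.431 for Rps27l, 0.427 for Rpl30 and 0.391 for Rplp0. Rpl29 had 0.34 in testis and -0.28 in muscle, and Rpl36al had 0.34 and -0.30. Rpl30 was negative in both tissues, at -0.06 and -0.47. The count was 8 without testis WT replicate 2, 10 without testis KO replicate 3 or muscle KO replicate 3, 11 without testis KO replicate 2, 13 without testis WT replicate 1, 17 without testis WT replicate 3, 18 without testis KO replicate 1, and 21 without muscle KO replicate 2. The same interaction called 0 of 82 members for liver against muscle (0.267% of all genes, median 0.25) and 0 for testis against liver (0.423% of all genes, median 0.08). With the replicate number as a block, 21 members were called for testis against muscle. Summed fibroblast, macrophage and adipocyte markers were higher in every KO muscle sample than in every WT one, and their part was not tested. Groups of 3 samples are too small for a test of single outlying samples.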

How the results depend on the processing

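Of 7371 values per named gene under the alternatives, 7050 kept their side of the threshold, 182 lost it and 139 gained it. The sign differed from the main value in 223, among them Rps6 in the first N2a experiment without siNT replicate 2, and 0 of these passed the threshold in either fit. DESeq2 called 6 members in cortex, 4 in hippocampus, 28 in muscle, 4 over the pooled brain regions and 4 for the cortex to hippocampus interaction. A single fit of all 18 brain samples called 5 in cortex. Over the pooled brain regions, DESeq2 size factors in edgeR left 1 call and summing same-numbered samples left 0. In the co-transfection data, fits of only the compared groups called 15 in siFmr1, 19 in siMbnl1, 48 with nuclear MBNL1, 72 with cytosolic MBNL1 and 39 between siFmr1 and siMbnl1, and with no filter on low values the cytosolic MBNL1 comparison had 0. These fits estimate the spread from fewer samples.

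Nothing in the labels says that same-numbered samples share an animal or a culture, and in no comparison of genotypes or siRNAs did every such pair correlate above 0.1. Between KO hippocampus and KO cerebellum all 3 pairs did (0.12 to 0.415), so a shared source there was not settled. With the replicate number as a block, 0 members were called in muscle, 0 over the pooled brain, 0 with cytosolic MBNL1 and 21 for the KO effect in testis against muscle, and no other count moved by over 1.5 times.

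Leaving out 1 sample gave 0 to 7 calls in cortex, 0 in muscle, 5 to 24 in testis, 0 to 3 in the pooled brain, 0 to 4 for the cortex to hippocampus interaction, 26 to 82 in siFmr1, 0 to 1 with nuclear MBNL1, 0 with cytosolic MBNL1, 2 to 4 between siFmr1 and siMbnl1, 18 to 39 between WT cortex and hippocampus, and 8 to 36 for the KO effect in testis against muscle. The cause was not tested. Biological variation estimated by edgeR was 39.9% in the first N2a experiment and 5.99 to 18.5% in tissues, which limits what 2 or 3 samples can show.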
